A study of Mus musculus with 9 samples.

Results

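The early response to the transcription factor Sox17 was described by pooling 3 RNA sequencing libraries of induced mouse embryonic stem cells (ESC) and setting them against 2 uninduced ESC libraries. The induced libraries come from a line that overexpresses Sox17, exposed to 100 ng/ml doxycycline (dox) for 21, 35 and 49 h. The uninduced libraries are the same line without dox and wild-type R1 ESC without dox. These are 5 of the 9 libraries of the series. The other 4 are the Sox17 line after 7 h and after 6 days with dox, Sox17-XEN cells, and wild-type extraembryonic endoderm stem (XEN) cells of the IM8AR line. According to the labels, ESC were kept on mouse embryonic fibroblasts in serum with the cytokine LIF, and the induced cells stayed in that medium with dox added. Each condition has 1 library, so the 3 times and the 2 lines are not true replicates, and the spread used by any test below holds change over time and the difference between lines. No wild-type culture with dox is among the libraries. Effects of dox, of Sox17 and of time in culture therefore cannot be told apart. The promoter that drives the Sox17 transgene is not given in the sources used here.

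Values are FPKM (fragments relative to transcript length and to library size), and differences are on the log2(FPKM + 1) scale, mean of the dox libraries minus mean of the uninduced ones, with the standard error (SE). That scale understates the change of genes of low level. Of 37975 rows in the table, 37443 had a usable estimate in all 5 libraries, and 13824 of these reached 1 FPKM in at least 1 of them and were tested. Genes were described by 2 rules. Under the first, a gene was consistently higher or lower when each of the 6 pairs of 1 dox and 1 uninduced library differed the same way by at least 1 log2 unit, which is 2-fold in FPKM + 1. This rule has no test. Under the second, limma's moderated test gave a Benjamini-Hochberg adjusted p under 0.05, and "rose" and "fell" are used only for genes that passed it. For a single gene, an exact permutation test of 3 against 2 libraries cannot go below a two-sided p of 0.2.

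Sox17 is an HMG-box transcription factor that helps to set up the primitive endoderm, the lineage of the early embryo that gives the visceral and parietal endoderm of the yolk sacs and from which XEN cells are derived. In the blastocyst, this lineage separates from the epiblast, the source of ESC, under FGF signalling. Fgf4 is made by epiblast-type cells, and Gata6 and Gata4 mark the endoderm side. Sox17 and the pluripotency factor Sox2 recognise closely related DNA motifs, and both can pair with the POU factor Oct4, encoded by Pou5f1.

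The absolute depth is unknown because the table gives no read counts. Relative to R1, the estimated depth of the other 4 libraries was 94.7% to 122%, an estimate that rests on 7.38% to 11.2% of the low values. The uninduced libraries differed from each other by at least 1 log2 unit for 801 genes (5.79% of those tested), of which 528 were higher in the Sox17 line. Defining markers of ESC were present in all 5 libraries, with summed levels of 4570 FPKM in R1, 2996 in the Sox17 line without dox and 2170 to 2569 in the dox libraries. Esrrb is not in that sum because its estimate failed. Markers of fibroblasts, the cell type used as feeders, summed to 822 FPKM in R1, 1832 in the Sox17 line without dox, and 1178, 1498 and 2273 at 21, 35 and 49 h, and none of the 9 was at 0 in any library. The mitochondrial ribosomal RNA mt-Rnr2 was at 9.69 FPKM in R1, 207 in the Sox17 line without dox and 20.6 to 23.9 in the dox libraries. The part of these differences in the results below was not tested beyond leaving out each library in turn.

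After 21 to 49 h of dox, 162 genes were consistently higher (1.17% of those tested) and 85 consistently lower (0.615%). By limma, 311 genes rose (2.25%) and 207 fell (1.5%), together 3.75%. Together 1.79% were consistently higher or lower. The groups did not overlap for 22.8% of genes with dox above and 22.1% with dox below. Of the consistently higher genes 151 also passed limma, and of the consistently lower ones 74. The largest gap between the groups among higher genes was that of Sox17, followed by Sox21, Igf1, Pgam2 and Phf19. Among lower genes, Fgf17, Zic5, Fgf4, Zic2 and Tcea3 had the largest gaps of the rows with ordinary gene symbols. Myo7a lay just inside the rule for higher genes, with a smallest pair difference of 1.02, and Gdpd1 just outside it at 0.999968. For lower genes, Jph4 lay just inside at 1.002 and Gsta3 just outside at 0.998 (taken as sizes). The median difference over all tested genes was 0.04.

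**Figure D1:**
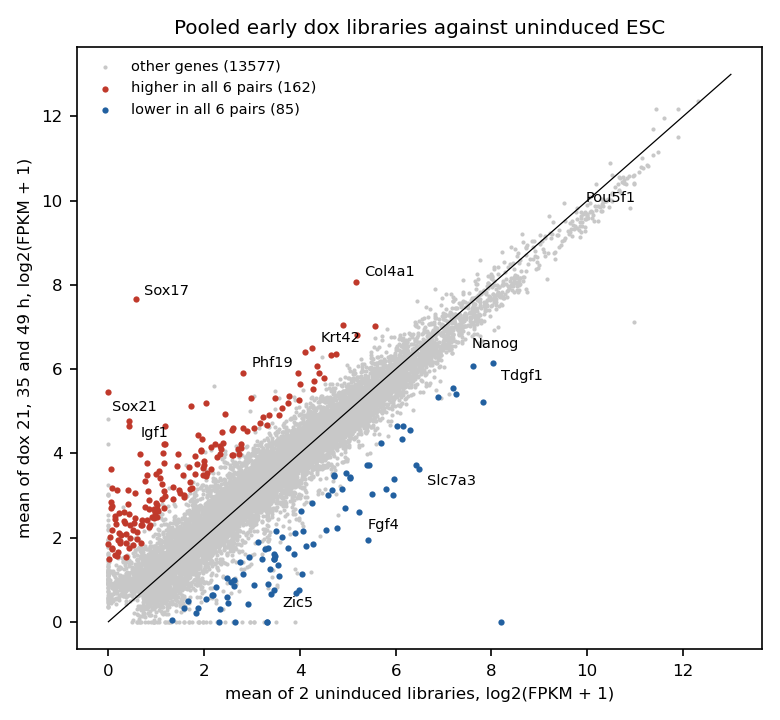
Each point is 1 of the 13824 genes tested, with the mean of the 2 uninduced libraries on the x axis and the mean of the 3 dox libraries on the y axis, both in log2(FPKM + 1), and a line of equality. The 162 red genes and 85 blue genes differed by at least 1 log2 unit in all 6 pairs, Sox17 lies farthest above the line, and Pou5f1 lies close to it.

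These counts move with single libraries. Without the uninduced Sox17 line, 553 genes were consistently higher and 388 consistently lower, and limma called 2093 and 1798. Without R1 the limma counts were 63 higher and 59 lower, without 21 h 80 and 41, without 35 h 47 and 24, and without 49 h 139 and 63. Consistently lower genes numbered 156 without R1 and 136 without 21 h. Of the named genes, 22 lost their limma call without R1, 14 without 21 h, 16 without 35 h, 4 without 49 h and 1, Nkx2-9, without the uninduced Sox17 line. Of 47 named genes that passed limma, 13 passed in every alternative fit that tested them: Sox17, Sox21, Igf1, Phf19, Fam167a, Bmp6, Pga5, Foxa1, Fgf17, Zic5, Zic2, Foxd3 and Pim2.

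**Figure D2:**
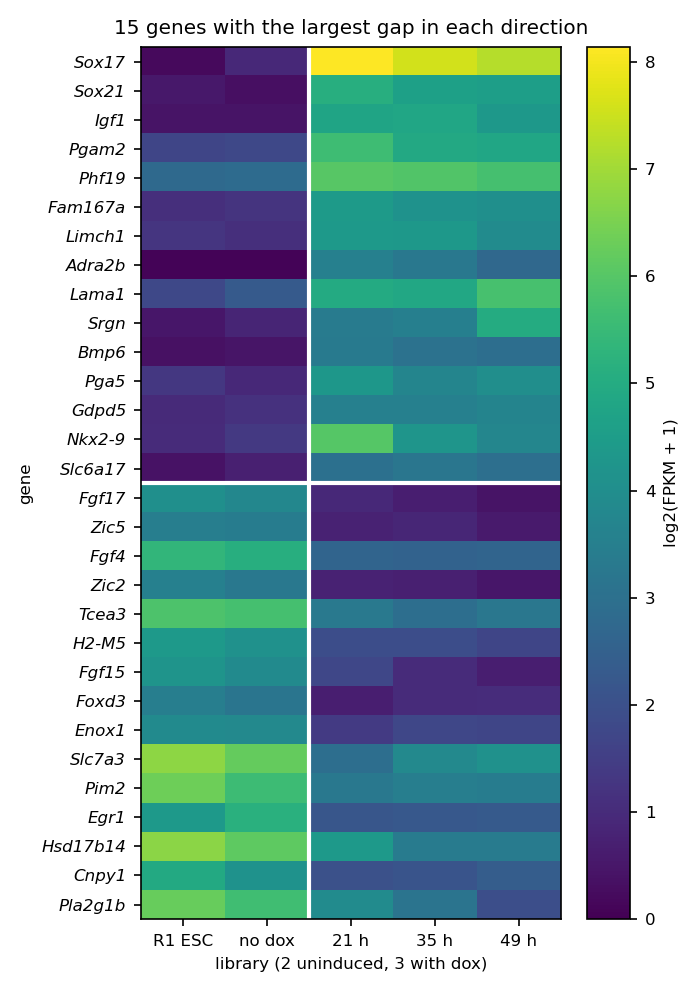
Rows are the 15 genes with the largest gap in each direction, columns the 2 uninduced and 3 dox libraries, and colour gives log2(FPKM + 1). The upper block is dark in both uninduced columns and lighter in all 3 dox columns, with Sox17 the lightest row, and the lower block shows the opposite.

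Sox17 itself, at chr1:4481009-4486494 in the mouse build mm9, was at 0.163 FPKM in R1 and 0.909 in the Sox17 line without dox. It reached 281 FPKM at 21 h, 191 at 35 h and 151 at 49 h. All 3 dox libraries lay far above both uninduced ones, and the difference was 7.08 (SE 0.32, limma adjusted p = 0.0014). The table does not separate transcripts of the transgene from those of the endogenous gene.

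Of 17 regulators of primitive endoderm tested, 6 were consistently higher and none lower, against 1.17% and 0.615% of all tested genes. Sox17, Foxa1, Foxa2, Gata4 and Gata6 were among the 6. By limma 4 rose and none fell, against 2.25% and 1.5% of all tested genes, and the median difference was 1.54 without Sox17. Foxa1 and Foxa2 are forkhead pioneer factors of the gut endoderm. Foxa1 was at 0.167 FPKM in both uninduced libraries and at 5.64, 5.45 and 4.12 in the dox libraries (difference 2.37, SE 0.18, limma adjusted p = 0.0053). Foxa2 was at 0.859 in R1, 0.560 without dox, and 6.21, 4.69 and 6.15. For both genes the groups were far apart and the 3 times were alike.

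Gata4 and Gata6, the zinc-finger factors that mark the primitive endoderm, were at or under 0.824 FPKM in both uninduced libraries. Over the 3 dox times Gata4 stood at 4.57, 13.1 and 32.0 FPKM and Gata6 at 1.96, 5.86 and 9.84. Each stood above both uninduced libraries in all 6 pairs, but the values differed several-fold between times. Their differences of 2.98 (SE 0.69) and 2.28 (SE 0.52) missed the threshold, with limma adjusted p of 0.074 and 0.073. With hours of dox as a covariate the limma adjusted p was 0.012 for Gata4 and 0.022 for Gata6. Both also passed with a pseudocount of 0.1 (0.044 and 0.034) and with protein-coding genes only (0.0496 and 0.048). With the 7 h library added it was 0.209 and 0.278, without 35 h 0.208 and 0.221, and without 21 h 0.054 and 0.048. Foxa2 lost its limma call when the 7 h library was added (adjusted p = 0.221).

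Other endoderm markers were not called by either rule. Sox7, a close relative of Sox17, was at 0.998, 2.96 and 7.05 FPKM at 21, 35 and 49 h against 0.105 and 0.256 uninduced, and its smallest pair difference was 0.67. Dab2, an endocytic adaptor of the endoderm, was at 6.41 FPKM at 21 h, below the 8.52 of the Sox17 line without dox, and at 52.1 at 49 h. Neither passed limma (adjusted p = 0.133 and 0.306). Pdgfra, the PDGF receptor of primitive endoderm, overlapped between the groups, at 3.55 to 10.1 FPKM with dox against 1.01 and 4.996 without. Of 26 visceral endoderm genes listed, 14 were tested. Of those tested, 2 rose and none fell, against 2.25% and 1.5% of all tested genes. Amn, which anchors the cubilin uptake receptor, was at 4.33 to 7.06 FPKM against 0.865 and 1.05 (difference 1.66, SE 0.23, limma adjusted p = 0.024). Spink3, a secreted protease inhibitor, was at 21.2 to 39.0 against 9.20 and 9.35 (limma adjusted p = 0.036). Both calls were lost without R1, at 0.098 for Amn and 0.126 for Spink3. In the list of anterior visceral and definitive endoderm, none of 14 rose and Otx2 alone fell.

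**Figure D3:**
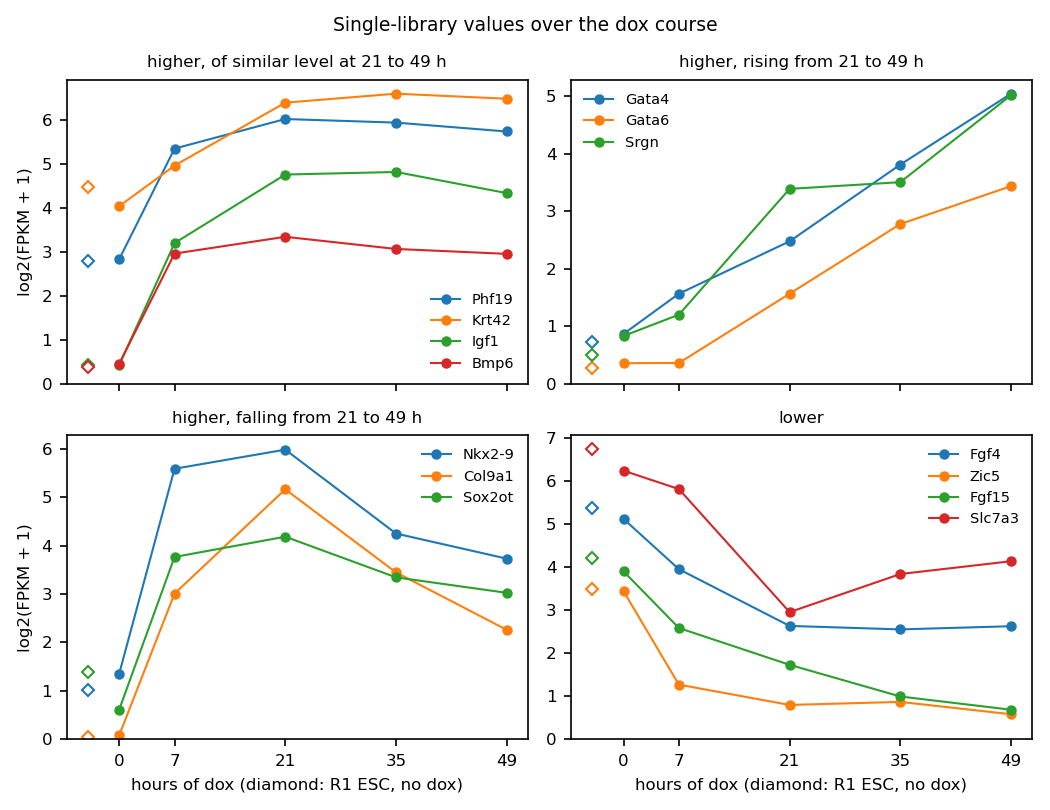
Log2(FPKM + 1) is plotted against hours of dox, 1 library per point, with the R1 value as an open diamond to the left of 0. Phf19, Krt42, Igf1 and Bmp6 keep a similar level from 21 to 49 h, Gata4, Gata6 and Srgn climb, Nkx2-9, Col9a1 and Sox2ot decline, and Fgf4, Zic5, Fgf15 and Slc7a3 lie lower at 21 to 49 h than at 0 h.

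The list of parietal endoderm and basement membrane genes held 5 consistently higher members of 30 tested (Lama1, Srgn, Col4a1, Tfpi and Col4a2), and all 5 rose by limma. Of all tested genes, 1.17% were consistently higher, and by limma 2.25% rose and 1.5% fell. The list's median difference was 0.67. Lama1, the laminin alpha chain of embryonic basement membranes, was at 2.40 FPKM in R1, 3.92 without dox, and 30.3, 28.4 and 53.5 at 21, 35 and 49 h (difference 3.17, SE 0.31, limma adjusted p = 0.0099). Col4a1 and Col4a2 encode the chains of type IV collagen and sit head to head, so their rows share a locus. Col4a1 was at 23.8 and 51.7 FPKM in R1 and the uninduced Sox17 line, and at 220, 278 and 308 with dox (difference 2.88, SE 0.33, limma adjusted p = 0.016). Col4a2 was at 18.9 and 44.0, then 112, 127 and 158. For both chains the Sox17 line without dox stood above R1, and every dox library was above both.

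Tfpi, an inhibitor of coagulation, stood at 26.0 and 26.1 FPKM uninduced and at 71.9, 78.4 and 94.7 with dox (difference 1.60, SE 0.15, limma adjusted p = 0.0094). Srgn, the core protein of serglycin proteoglycan, was at 0.421 and 0.781 uninduced and at 9.49, 10.4 and 31.4 with dox (limma adjusted p = 0.031). Members of the same list fell as well: Lama5, a laminin chain of epithelia, was at 55.8 and 41.1 FPKM uninduced against 21.5 to 26.5 with dox (limma adjusted p = 0.042). Fbln1, a matrix glycoprotein, was at 17.8 and 22.5 against 11.1 to 11.6 (limma adjusted p = 0.048). The laminin partners of Lama1 did not pass, with Lamb1 at 68.1 to 106 FPKM against 32.7 and 58.1 (limma adjusted p = 0.169) and Lamc1 at 48.2 to 95.5 against 33.9 and 54.0 (0.324). Without R1, the limma adjusted p was 0.080 for Lama1, 0.129 for Srgn and 0.065 for Tfpi. Without 21 h it was 0.060 for Col4a1. Fibroblasts also make type IV collagen, and the sum of the 9 fibroblast markers went from 1178 FPKM at 21 h to 2273 at 49 h and was 1832 in the Sox17 line without dox. Its part in these values was not tested.

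Of the other SOX genes tested, Sox21 and Sox13 were consistently higher, as was the noncoding Sox2ot. Sox21, a repressor of the SoxB group known from neural progenitors, was at 0.431 FPKM in R1, 0.253 without dox, and 33.7, 23.5 and 22.6 with dox (difference 4.34, SE 0.21, limma adjusted p = 0.0015). Sox13 was at 12.4 and 18.0 FPKM uninduced and at 46.2 to 51.4 with dox (limma adjusted p = 0.012). Sox2ot, the long noncoding transcript around Sox2, was at 1.62 and 0.526 uninduced and at 17.2, 9.17 and 7.14 with dox (difference 2.52, SE 0.40, limma adjusted p = 0.034; 0.092 without R1). Sox2 itself, which lies within that transcript, was at 139 and 131 FPKM uninduced and at 85.7, 103 and 91.0 with dox. The difference of -0.53 (SE 0.14) missed the threshold (limma adjusted p = 0.091), and passed without the uninduced Sox17 line (0.043). The use of strand is not stated, so reads of overlapping transcripts such as Sox2 and Sox2ot may not be fully separated. Of 17 SOX and GATA genes tested, 6 were consistently higher and none lower, against 1.17% and 0.615% of all tested genes.

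Among 22 neural differentiation genes listed, 9 were tested and 3 were consistently higher (Sox21, Nkx2-9 and Foxa2), against 1.17% of all tested genes. Foxa2 is also an endoderm factor and is counted in that list as well. Nkx2-9, a homeobox factor of the ventral midline, was at 1.01 and 1.56 FPKM uninduced and at 62.4 at 21 h, 18.1 at 35 h and 12.3 at 49 h. It was highest at the earliest of the 3 times (difference 3.48, SE 0.64, limma adjusted p = 0.046). Its call was lost without R1 (0.169), without the uninduced Sox17 line (0.057) and without 35 h (0.096). Ntn1, the guidance cue netrin, and Tubb3, a neuronal tubulin, fell, with Tubb3 at 36.5 and 36.7 FPKM against 15.1 to 19.8 (limma adjusted p = 0.026). The list's median difference was -0.66.

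Phf19, a Polycomb-like protein that recruits the histone methyltransferase PRC2, was at 5.93 FPKM in R1, 6.13 without dox, and 64.1, 60.5 and 52.5 at 21, 35 and 49 h. The uninduced values were nearly equal and every dox value was far above them (difference 3.09, SE 0.14, limma adjusted p = 0.0014). The gene lies at chr2:34749277-34771534 in mm9, a locus it shares with another row. The median difference of the Polycomb list was 0.09. Of 33 members tested Phf19 alone was called by either rule, against 3.75% of all tested genes by limma. Its paralogs Mtf2 and Phf1 did not pass, with Mtf2 at 90.2 to 99.8 FPKM against 69.3 and 88.6 (limma adjusted p = 0.293) and Phf1 at 5.19 to 5.87 against 5.35 and 4.23 (0.496). The PRC2 catalytic subunit Ezh2 was at 46.8 to 48.2 FPKM against 58.4 and 55.6 (0.228).

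Krt42, a type I keratin, was at 21.2 FPKM in R1, 15.5 without dox, and 83.3, 96.1 and 88.6 with dox (difference 2.24, SE 0.17, limma adjusted p = 0.0052). It lies at chr11:100124196-100131185 in mm9. All dox values were close to each other and well above both uninduced ones. Krt7 also rose, from 1.10 and 0.857 FPKM to 4.25, 6.14 and 4.99 (difference 1.62, SE 0.19, limma adjusted p = 0.016). The keratin pair of simple epithelia overlapped between the groups: Krt8 was at 27.0 to 38.0 FPKM with dox against 37.1 and 15.2, and Krt18 at 20.3 to 26.2 against 25.7 and 11.3. Of 23 keratins and other intermediate filaments tested, 2 rose and none fell, against 2.25% and 1.5% of all tested genes. The list had a median difference of -0.07. With the 7 h library added, Krt42 lost its call (adjusted p = 0.130), and Krt7 lost it without R1 (0.070).

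The windows upstream of these 2 marker genes are shown because both genes rose with dox and Sox17 binds DNA by its HMG box. They are the 250 bases before the gene start in RefSeq, build GRCm38.p6, which is not the build of the expression table, and both are on the minus strand. Capitals mark matches to the SOX core motif ACAAT or its longer form ACAATG, searched on both strands. The POU motif ATGCAAA had no match in either.
Krt42 (chr11:100269952-100270201): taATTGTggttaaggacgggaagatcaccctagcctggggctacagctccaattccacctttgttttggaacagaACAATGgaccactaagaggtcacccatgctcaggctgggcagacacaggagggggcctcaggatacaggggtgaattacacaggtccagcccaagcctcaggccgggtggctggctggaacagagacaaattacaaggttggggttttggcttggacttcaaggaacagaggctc
Phf19 (chr2:34913977-34914226): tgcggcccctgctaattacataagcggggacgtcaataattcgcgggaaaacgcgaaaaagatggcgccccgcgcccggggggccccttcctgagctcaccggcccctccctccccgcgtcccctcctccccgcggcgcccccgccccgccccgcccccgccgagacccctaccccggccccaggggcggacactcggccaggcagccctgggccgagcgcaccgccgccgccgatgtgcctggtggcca
The Krt42 window held ACAAT 2 times, once as part of ACAATG, 175 bases before the start, and the Phf19 window held neither. The windows of Fgf4 and Zic5 held none of the 3 motifs. Over all 32851 promoter windows of the table, 27.7% held ACAAT, 10.7% ACAATG and 4.12% ATGCAAA, so a match is common. A match is a description and no binding site. The RefSeq start of Krt42 did not match the start of a GENCODE M21 transcript of the gene, and the GC content was 54% for Krt42 and 75.2% for Phf19. Only 110 of the 162 higher genes (67.9%) and 46 of the 85 lower ones (54.1%) had a window by symbol, so no share was taken over either set.

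Secreted ligands were among the genes with the largest gaps. Igf1, insulin-like growth factor 1, was at 0.335 and 0.344 FPKM uninduced and at 26.1, 27.2 and 19.2 with dox (difference 4.22, SE 0.19, limma adjusted p = 0.0014). No other of the 17 tested genes of the IGF axis passed either rule. Bmp6, a BMP ligand, was at 0.298 and 0.372 uninduced and at 9.16, 7.39 and 6.76 with dox (difference 2.71, SE 0.18, limma adjusted p = 0.0036). In the Nodal and BMP list, 4 of 28 rose and 1 fell, against 2.25% and 1.5% of all tested genes. Those that rose were Bmp6, Id4, an inhibitor of bHLH factors, Smad6, an inhibitory Smad, and Acvr1b, a type I receptor. Tdgf1, the Nodal co-receptor Cripto, fell. Nodal itself was at 36.8 and 24.9 FPKM uninduced and 13.3 to 19.7 with dox (limma adjusted p = 0.121).

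The other genes among the 15 with the largest gap upward have varied roles. Pgam2, the muscle form of phosphoglycerate mutase, was at 2.28 and 2.36 FPKM uninduced and at 48.1, 28.9 and 27.2 with dox (difference 3.38, SE 0.26, limma adjusted p = 0.0053). It was the single consistently higher member among 27 glycolysis and hypoxia genes, against 1.17% of all tested genes. Adra2b, an adrenergic receptor, was at 0.0552 and 0.0600 uninduced and at 10.6, 8.61 and 5.74 with dox (limma adjusted p = 0.0060). Fam167a, Limch1, an actin-binding protein, Pga5, a pepsinogen, Gdpd5, a phosphodiesterase, and Slc6a17, a neutral amino acid transporter, rose by 2.52 to 3.05. By the rule that chose these genes, no dox library overlaps an uninduced one. Adra2b and Pgam2 lost the call without R1 (limma adjusted p = 0.063 and 0.062).

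Among the consistently lower genes were 4 FGF ligands, Fgf17, Fgf4, Fgf15 and Fgf5. Fgf4, the ligand that epiblast-type cells make, was at 39.9 FPKM in R1, 33.6 in the Sox17 line without dox, and 5.18, 4.84 and 5.15 at 21, 35 and 49 h. The 3 dox values were almost equal and all far below the uninduced ones (difference -2.64, SE 0.14, limma adjusted p = 0.0020; 0.069 with the 7 h library added). The gene lies at chr7:152047291-152051148 in mm9. Fgf17 was at 15.7 and 12.6 FPKM uninduced and at 0.923, 0.597 and 0.352 with dox (difference -3.23, SE 0.21, limma adjusted p = 0.0036). Fgf15 was at 17.4 and 13.9, then 2.30, 0.984 and 0.604 (difference -2.92, SE 0.32, limma adjusted p = 0.014; 0.089 without R1). Fgf5, a marker of the primed epiblast, was at 4.61 and 5.12, then 0.609, 0.918 and 1.32 (difference -1.61, SE 0.20, limma adjusted p = 0.020; 0.085 without R1). Fgf8 overlapped between the groups, at 7.15, 3.68 and 2.11 FPKM with dox against 7.81 and 4.56.

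Some receptors of the pathway rose. Fgfr3 rose from 0.363 and 0.503 FPKM to 3.34 to 3.80 (difference 1.66, SE 0.16, limma adjusted p = 0.0094), and Fgfr4 from 0.538 and 0.609 to 1.79 to 2.25 (0.90, SE 0.17, limma adjusted p = 0.047). Klb, the co-receptor beta-Klotho for endocrine FGFs, was at 0.0365 and 0.0686 uninduced and at 3.58, 6.54 and 7.95 with dox (difference 2.68, SE 0.30, limma adjusted p = 0.014; 0.087 without R1). Fgfr1, an FGF receptor expressed in ESC, was at 39.5 to 49.4 FPKM with dox against 36.7 and 44.1, and Fgfr2 at 14.4 to 26.4 against 8.31 and 10.7. Neither passed (limma adjusted p = 0.600 and 0.092). Of 18 FGF ligands and receptors tested, 2 were consistently higher and 4 lower, against 1.17% and 0.615% of all tested genes. The list's median difference was 0.08.

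Genes that report ERK activity downstream of FGF had a median difference of 0.04 over 32 tested, the same as all genes. Egr1, an immediate early transcription factor, was at 19.7 and 35.3 FPKM uninduced and at 3.55, 3.69 and 3.91 with dox (difference -2.54, SE 0.25, limma adjusted p = 0.0098; 0.054 without 21 h). Fos, another immediate early gene, fell from 3.16 and 3.52 to 0.671 to 1.19 (limma adjusted p = 0.033). Dusp4, a phosphatase that acts on ERK, rose from 9.46 and 13.4 to 29.1, 34.9 and 34.7 (difference 1.46, SE 0.18, limma adjusted p = 0.020; 0.069 without R1). The feedback phosphatase Dusp6 was at 21.9 to 23.8 FPKM with dox against 19.14 and 23.2 (limma adjusted p = 0.58), and Etv5 at 87.2 to 101 against 127 and 121 (0.146).

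Regulators of the epiblast and early neural plate held 5 consistently lower members of 20 tested (Zic5, Zic2, Foxd3, Fgf5 and Otx2) and none higher. By limma 7 fell, Tubb3 and Dnmt3a in addition, and the median difference was -0.84. Of all tested genes, 0.615% were consistently lower and 1.5% fell by limma. Zic5, a zinc-finger factor at chr14:122856017-122864899 in mm9, was at 10.2 FPKM in R1, 9.80 without dox, and 0.732, 0.819 and 0.491 with dox (difference -2.72, SE 0.16, limma adjusted p = 0.0030). Its neighbour and paralog Zic2 was at 10.7 and 8.55, then 0.726, 0.639 and 0.394 (difference -2.74, SE 0.18, limma adjusted p = 0.0038). Both genes were under 1 FPKM in every dox library.

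Foxd3, a forkhead factor of the epiblast, was at 10.3 and 7.99 FPKM uninduced and at 0.616, 0.998 and 1.04 with dox (difference -2.43, SE 0.19, limma adjusted p = 0.0057). Otx2, which marks the formative epiblast and the anterior visceral endoderm, was at 24.7 and 25.8 uninduced and at 9.77, 9.77 and 10.9 with dox (difference -1.24, SE 0.12, limma adjusted p = 0.010). The fall of Otx2 left it well above 1 FPKM. Its call was lost without 35 h and with the 7 h library added (limma adjusted p = 0.079 and 0.189). Dnmt3a, a de novo DNA methyltransferase, fell from 39.5 and 48.7 to 22.1 to 25.7 (limma adjusted p = 0.039), and Dnmt3b was at 27.8, 39.1 and 65.7 against 121 and 154 (0.059). Dnmt3a was the single member called of 15 DNA methylation genes, against 3.75% of all tested genes by limma.

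The core pluripotency factors kept high levels through 49 h, but Nanog and Sox2 lay below both uninduced libraries at all 3 times. Pou5f1 was at 1080 FPKM in R1, 723 in the Sox17 line without dox, and 927, 994 and 817 with dox, so that every dox value lay between the uninduced ones (difference 0.04, SE 0.23, limma adjusted p = 0.921). Its direction changed between alternatives, from -0.25 to 0.33. Nanog was at 169 FPKM in both uninduced libraries and at 87.0, 142 and 134 with dox (difference -0.51, SE 0.23, limma adjusted p = 0.239). Of 37 genes of core and naive pluripotency tested, 2 were consistently lower and none higher, against 0.615% and 1.17% of all tested genes. By limma 6 fell and none rose, against 1.5% and 2.25% of all tested genes, and the median difference was -0.51. All 3 dox values lay below both uninduced ones for 20 of the 37 and above them for 2. Over all tested genes these shares were 22.1% and 22.8%.

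The members of that list that fell were auxiliary factors. Tdgf1 was at 336 and 200 FPKM uninduced and at 48.2, 78.9 and 89.2 with dox (difference -1.88, SE 0.33, limma adjusted p = 0.042; 0.140 without R1). Nr0b1, the orphan receptor Dax1, was at 54.3 and 32.9, then 9.22, 15.2 and 12.6 (difference -1.72, SE 0.28, limma adjusted p = 0.036; 0.113 without R1). Both genes were lowest at 21 h. Klf2, a Kruppel-like factor of naive cells, fell from 56.6 and 39.4 FPKM to 14.2 to 22.1 (limma adjusted p = 0.040), while Klf4 overlapped between the groups at 14.1 to 32.9 against 28.0 and 41.6. Zscan10, a partner of Oct4 and Sox2, fell from 55.6 and 60.2 to 21.4 to 28.2 (limma adjusted p = 0.020). Mycn and Gbx2 fell by 1.04 and 1.13. Zfp42, the ESC marker Rex1, was at 91.9 to 156 FPKM against 316 and 248 (difference -1.13, limma adjusted p = 0.074).

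The other genes among the 15 with the largest gap downward have varied roles. Pim2, a serine/threonine kinase induced by cytokine signalling, was at 80.3 and 47.2 FPKM uninduced and at 8.53, 10.3 and 9.76 with dox (difference -2.58, SE 0.24, limma adjusted p = 0.0094). Slc7a3, a cationic amino acid transporter, was at 106 and 74.1, then 6.71, 13.2 and 16.5 (difference -2.85, SE 0.37, limma adjusted p = 0.021; 0.104 without R1). It was lowest at 21 h and all dox values were far below both uninduced ones. Tcea3, a transcription elongation factor, was at 57.1 and 51.9, then 8.81, 6.69 and 8.34 (difference -2.64, SE 0.15, limma adjusted p = 0.0027). Enox1, H2-M5, Cnpy1 and Hsd17b14 fell by 2.26 to 2.71. Pla2g1b, a secreted phospholipase, was at 74.6 and 48.7 FPKM uninduced and at 14.4, 7.77 and 2.90 with dox, and its difference of -2.92 (SE 0.56) just missed the threshold (limma adjusted p = 0.0501).

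**Figure D4:**
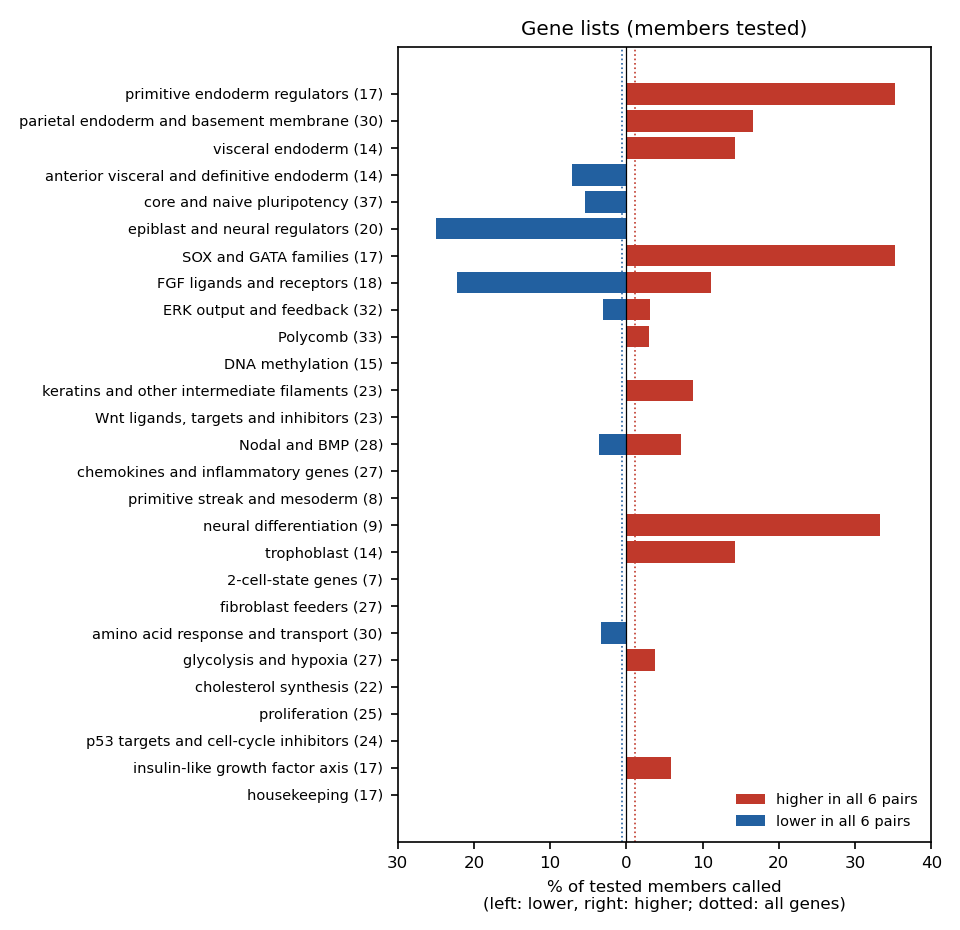
For each of 27 gene lists, with the number of members tested in brackets, bars give the percent of members consistently higher (right) and lower (left), and dotted lines give the shares over all genes (1.17% and 0.615%). Primitive endoderm regulators and the SOX and GATA list reach farthest right, with 6 of 17 each, and epiblast and neural regulators farthest left, with 5 of 20.

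Over the 27 lists together, 28 of 528 members were consistently higher and 12 lower. Over all tested genes the shares were 1.17% and 0.615%, and by limma 2.25% rose and 1.5% fell. The lists were written with earlier results of these data known, so these counts are no independent support for a list. Some members, such as Sox17, Gata4 and Foxa1, were tested only because a dox library reached 1 FPKM. Members of the amino acid list fell without a member rising (Slc7a3, Psat1, Phgdh and Slc7a7, of 30 tested). Psat1 and Phgdh are enzymes of serine synthesis. In the Wnt list, the ligands Wnt7b and Wnt6 rose and the target Sp5 fell, of 23 tested, and none was called by the pair rule. In the trophoblast list, 2 of 14 rose, Krt7 and the transcription factor Tfap2c, the latter from 20.4 and 22.7 FPKM to 51.7 to 60.4 (limma adjusted p = 0.011). With the 7 h library added, Tfap2c lost its call (limma adjusted p = 0.237). All 7 tested genes of the 2-cell state lay below both uninduced libraries (22.1% of all genes did), with a median difference of -1.56, and none passed limma. Zscan4d, for example, was at 29.3 FPKM in R1, 8.19 in the Sox17 line without dox and 2.98 to 4.99 with dox (limma adjusted p = 0.106; 0.013 without the uninduced Sox17 line).

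Several lists had no member called by either rule. These were chemokines and inflammatory genes, primitive streak and mesoderm, fibroblast feeders, cholesterol synthesis, proliferation, p53 targets and cell-cycle inhibitors, and housekeeping. The chemokine Ccl2 was at 52.0 and 61.9 FPKM at 21 and 35 h and 393 at 49 h, against 28.6 and 91.0 uninduced (limma adjusted p = 0.509). The fibroblast collagen Col1a1 was at 315, 436 and 629 FPKM against 148 and 597 (limma adjusted p = 0.575). Both were highest at 49 h, where the fibroblast marker sum was also highest, but Col1a1 is itself part of that sum. The part of fibroblasts in the Ccl2 value was not tested. Brachyury (T), the streak factor, was at 7.99, 5.002 and 1.99 against 10.4 and 7.71 uninduced. The elongation factor gene Eef1a1 was at 5031 to 5395 FPKM against 5251 and 4986.

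Most called genes kept a similar level across the 3 times. A gene was described as climbing or declining from 21 to 49 h when the values at those times differed by at least 1 log2 unit with 35 h between them. Of the 162 higher genes, 3 climbed (Gata4, Gata6 and Srgn), 12 declined and 147 did neither. Over all tested genes, 1.84% climbed and 1.51% declined. Col9a1, a cartilage-type collagen, went from 34.9 FPKM at 21 h to 9.91 and 3.79, against 0.0317 and 0.0554 uninduced. Of the 85 lower genes, 77 did neither, 6 declined, Fgf15 and Pla2g1b among them, and 2 climbed, Slc7a3 and Upp1, a uridine phosphorylase at 21.3, 37.2 and 58.8 FPKM against 311 and 165 uninduced. These course values rest on 1 library per time and have no test.

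**Figure D5:**
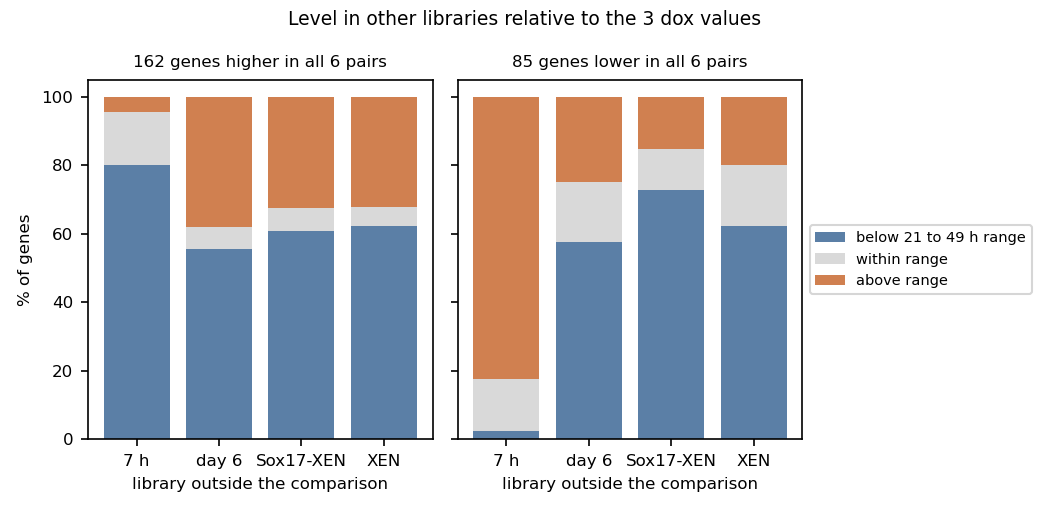
Bars show, for the 162 higher genes (left) and the 85 lower genes (right), the percent whose FPKM in 4 libraries outside the comparison lay below, within or above the range of the 3 dox values. At 7 h, 130 of the higher genes lay below the range and 70 of the lower genes above it, against 46.1% below and 23.3% above over all tested genes. In Sox17-XEN 62 and in XEN 53 of the lower genes lay below it, against 37.2% and 36.9% over all. The genes were chosen by their dox and uninduced values, so the shares over all genes are no like background.

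Libraries outside the comparison show where these genes stood earlier and later. At 7 h, 130 of the 162 higher genes lay below all 3 dox values and 32 did not, against 46.1% below over all tested genes. The 162 genes were chosen because their dox values lay above both uninduced ones. That choice alone can put another library below the range more often, so the share over all genes is no like background. The 162 genes had a median of 4.00 FPKM at 7 h. It was 1.25 to 1.31 FPKM uninduced and 9.63 to 10.3 at 21 to 49 h. Sox17 was at 283 FPKM at 7 h, Lama1 at 40.1, Phf19 at 39.8 and Bmp6 at 6.80, whereas Foxa2 was at 0.788, Klb at 0.131 and Gata6 at 0.285. The 85 lower genes had a median of 5.26 FPKM at 7 h, between 12.6 to 13.9 uninduced and 2.17 to 3.03 with longer dox. Zic5 was at 1.40 FPKM at 7 h, and Fgf4 at 14.4.

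After the window the higher genes lay on both sides of their range. At day 6, 61 of 160 measured lay above the range of the 3 dox values and 89 below it, and 46 were under 1 FPKM. Of all tested genes, 49.0% lay above their own range at day 6, 38.8% below it and 15.8% under 1 FPKM. As at 7 h, the shares over all genes are no like background for genes chosen by their dox values. In wild-type XEN cells 51 of 159 were above, 99 below and 69 under 1 FPKM, against 53.4% above, 36.9% below and 21.3% under 1 FPKM over all tested genes. Gata4 was at 303 FPKM at day 6, 660 in Sox17-XEN and 337 in XEN, and Foxa2, Klb, Fgfr3 and Pga5 were likewise above their range in all 3. Phf19 was at 0.470, 0.0629 and 0.282 FPKM in these libraries, and Krt42 at 0.265, 0.0893 and 0. Foxa1 was at 0.181, 0.0115 and 0.00539. Phf19 and Krt42 thus stood below their uninduced level in all 3 libraries. Among the lower genes, 51 of 85 were under 1 FPKM in XEN cells, with Fgf4 at 0.0455. Zic5 was at 2.17 FPKM in XEN, above its dox values.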

How the data were processed

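Per the labels' protocols, the RNA is a Trizol extract and the library kit was TruSeq. Cufflinks 2.1.2, Cuffdiff and TopHat2 2.0.11 and the mouse build mm9 are named in the submitters' processing notes. The authors deposited FPKM per gene with confidence bounds and a status, per the file headers. Estimates with any status other than OK were left out. The authors' lower bound was 0 for 98.9% of values of at least 1 FPKM, and their intervals were apart in all 6 pairs for 0 of the called genes. A locus listed for several genes concerns 38.9% of rows.

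Here, log2(FPKM + 1) of rows with at least 1 FPKM in at least 1 of 5 libraries was fitted with limma 3.58.1 in R 4.3.3, with empirical Bayes moderation, a mean trend and two-sided Benjamini-Hochberg adjusted p-values over 13824 rows. The fit was also run on simulated independent values. These held no change over time and no difference between lines, so the run could not check the spread that those add. Tables and figures were made with Python 3.11.15, pandas 2.3.3, numpy 2.4.6 and matplotlib 3.10.9. Gene types came from GENCODE M21. Coordinates are 1-based.

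The comparison, the 27 gene lists and the named genes were chosen with earlier results of these data known. Named are 10 fixed genes, the 15 genes with the largest smallest-pair difference in each direction, leaving out predicted and small RNAs, and up to 4 members per list. Where a list had none called, its 1 or 2 most abundant members were taken. Further genes in the text were chosen after their values were seen. The alternatives were other pseudocounts, low-value filters, scaling, left-out libraries, the 7 h library added, moderation without a trend, hours of dox as a covariate, other pair gaps and, chosen after seeing the data, protein-coding genes only. Some genes are not reported here.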

Additional observations from a re-analysis of the deposited data

How the results depend on the processing

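In the alternatives tried, no called gene among the 73 named turned its direction. Most alternatives could not have shown a turn, because the called genes among the named had all passed the pair rule. Their dox values all lay on the same side of both uninduced values. Leaving out a library or changing the pseudocount, filter, trend, pair gap or gene set keeps that side. Only the added 7 h library, the rescaling and hours of dox as a covariate could have turned a direction. The sign of Pou5f1, Ccng1, Cdk1, Col1a1 and Rpl13a, none of them called, changed with the setting. Consistently higher and lower genes (162 and 85) numbered 323 and 168 with a pseudocount of 0.1, 94 and 53 with a mean of at least 5 FPKM, and 53 and 33 with the 7 h library added. They numbered 3230 and 3103 when pairs had only to touch or not overlap (a gap of 0), 541 and 376 with a gap of 0.5, and 30 and 17 with a gap of 2. Genes higher and lower by limma (311 and 207) numbered 136 and 109 with no filter, 46 and 29 with the 7 h library added, 193 and 160 with a mean of at least 5 FPKM, and 221 and 96 with hours of dox as a covariate.

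Leaving out 1 library gave 47 (without 35 h) to 2093 (without the uninduced Sox17 line) genes higher by limma, and 24 to 1798 lower, without the same libraries. The cause of these changes was not tested. With fewer pairs to meet, the pair rule can only call more genes, and it gave 169 (without 35 h) to 553 (without the uninduced Sox17 line) higher and 101 to 388 lower, without the same libraries. With 1 uninduced library left, it is assumed to vary like the dox libraries. Without R1, 22 of the 73 named genes lost their call, and 29 lost it with the 7 h library added. No paired analysis was possible because each group has 1 library. Depth is unknown, and low values are the least certain.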

Other observations

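The genes named here were chosen after their values were seen, from no fixed list, and stand for no group. Cdh5, the cadherin of endothelial junctions, was at 0.0373 and 0.0753 FPKM in R1 and the Sox17 line without dox and at 4.06, 3.404 and 3.13 at 21, 35 and 49 h (difference 2.096, SE 0.17, limma adjusted p = 0.0060). Gja4, a connexin of arteries, was at 0.719 and 0.682 uninduced and at 12.1, 9.36 and 6.75 with dox (difference 2.58, SE 0.24, limma adjusted p = 0.0094). Ets1, a transcription factor of vascular and blood cells, was at 1.62 and 3.66 uninduced and at 16.9, 11.8 and 14.95 with dox (limma adjusted p = 0.022). Tie1, a receptor kinase of endothelium, was at 0.176 and 0.191 uninduced and at 4.29, 2.94 and 1.54 with dox, and missed the threshold (limma adjusted p = 0.0503). Cdh5 was at 85.1 FPKM in Sox17-XEN and 19.8 in wild-type XEN, whereas Tie1 was at 0.0713 and 0.0456.

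The lower genes named next were chosen in the same way. Prps1 and Prps2 make the sugar phosphate that nucleotide synthesis starts from. Prps1 fell from 88.7 and 68.6 FPKM to 26.4, 21.7 and 20.3 (difference -1.74, SE 0.18, limma adjusted p = 0.011), and Prps2 from 12.7 and 15.3 to 4.01, 2.87 and 3.04 (limma adjusted p = 0.010). Upp1, which splits uridine, Dpys, which degrades pyrimidines, and the nucleoside carrier Slc28a1 fell by 2.62, 2.14 and 1.92. Zfp57, which protects imprinted methylation, fell from 168 and 136 FPKM to 32.2, 43.3 and 50.5 (difference -1.85, SE 0.22, limma adjusted p = 0.017).

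Rows of small RNA types made up 3 of the 162 higher and 10 of the 85 lower rows. Their share of all tested rows was not computed, so neither count can be read as an excess.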
